A study of Mus musculus with 12 samples.

Results

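The binding of HOXA13 and HOXD13 was compared in the distal part of mouse forelimb buds at E11.5, from chromatin immunoprecipitation followed by sequencing (ChIP-seq). The material was 1 deposited peak list per factor, and every peak on an autosome was taken. This gave 30657 HOXA13 peaks and 22372 HOXD13 peaks, 53029 of the 189536 peaks in the 7 lists of the series. A further 387 HOXA13 peaks and 283 HOXD13 peaks lay on the X chromosome and entered only an alternative count. Both factors were mapped in wild-type embryos of a mixed C57BL/6 and CD1 background, with affinity-purified antibodies made in-house. HOXA13 chromatin was cross-linked with disuccinimidyl glutarate and formaldehyde, and HOXD13 chromatin with formaldehyde. H3K27ac and H3K27me3 lists from the same stage and limb region were used as independent readouts, in Hoxa13-/-;Hoxd13-/- embryos (the double mutant) and in wild type of the same background. The Hoxa13 allele of the double mutant has a neomycin cassette in the coding region, and its Hoxd13 allele has lacZ in the first exon.

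HOXA13 and HOXD13 are the homeodomain transcription factors encoded at the 5′ end of the HoxA and HoxD clusters. Their domains overlap in the distal limb bud, from which the digits form, and mouse limbs that lack both genes do not form normal digits. As paralogs of one group they have closely related DNA-binding domains. H3K27ac is a histone mark of active enhancers and promoters, and H3K27me3 is deposited by Polycomb complexes and covers the Hox clusters where they are silent.

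Each list came from 1 library, so the comparison of the factors has no replicate check and carries no p-value. The 95% intervals are Wilson intervals, or Newcombe intervals for differences. Differences averaged over bins of score have normal-approximation intervals instead. Medians and their ratio, where alternative settings are compared, have bounds from ordered values and the binomial distribution. All intervals cover only the counting of peaks. Neighbouring peaks are not independent, so these intervals are narrow. Without read counts in the lists, the depth of each library is unknown. Antibody, cross-linking and input library changed with the factor, depth may have differed too, and their parts in any difference between the lists cannot be told apart from that of the factor. Sex and pooling of the embryos are not stated in the labels. The score of a peak is the authors' own value, read as -10 times log10 of its p-value, and it was used only to rank peaks within a list.

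The HOXA13 list was longer and its peaks narrower. There were 1.37 HOXA13 peaks for each HOXD13 peak. HOXA13 peaks had a median width of 1037 bp, with the middle 50% between 895 and 1278 bp, and HOXD13 peaks had a median width of 1157 bp, with the middle 50% between 1023 and 1422 bp. The ratio of the medians was 0.896. HOXA13 peaks covered 35.1 Mb and HOXD13 peaks 29.0 Mb of the autosomes, and the 23.1 Mb covered by both was 65.9% of the HOXA13 bases and 79.7% of the HOXD13 bases. At the upper end the order was the other way. Peaks wider than 3 kb numbered 167 in the HOXA13 list and 205 in the HOXD13 list, and peaks wider than 5 kb numbered 6 and 22 in that order.

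Weak peaks made up much of both lists. Scores under 100 were held by 39.4% of HOXA13 peaks and 37.3% of HOXD13 peaks, while 1312 HOXA13 peaks and 1090 HOXD13 peaks scored over 1000. The scores tie at 3100, which 68 HOXA13 peaks and 54 HOXD13 peaks carried. Higher-ranked peaks were wider in both lists. From the lowest to the highest of 10 equal score bins (deciles), the median width increased in HOXA13 from 789 to 1626 bp and in HOXD13 from 958 to 1778 bp. Across the peaks of a list, score and width had a Spearman correlation of 0.806 for HOXA13 (30657 peaks) and 0.769 for HOXD13 (22372 peaks). The caller derives both values from the same reads, so this is a description.

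Most sites of each factor were also sites of the other, with a lower share for the longer HOXA13 list. With an overlap of at least 1 bp counted as shared, 19619 HOXA13 peaks (64.0%, 95% interval 63.5 to 64.5) overlapped a HOXD13 peak. In the other direction, 19467 HOXD13 peaks (87.0%, 86.6 to 87.5) overlapped a HOXA13 peak. That left 11038 HOXA13 peaks and 2905 HOXD13 peaks without a partner, called alone from here on. When the HOXA13 list was shortened by score rank to the 22372 peaks of the HOXD13 list (lowest remaining score 78.7), the shares became 77.5% (77.0 to 78.1) for HOXA13 and 77.3% (76.7 to 77.8) for HOXD13. As nearly all overlaps join 1 peak of each list, shares in lists of equal length are bound to be almost equal, so only their level is an observation. Median widths in these lists were 1134 bp for HOXA13 and 1157 bp for HOXD13.

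Sharing increased steeply with rank, and both curves met at the top. In the lowest decile 20.5% of HOXA13 peaks and 62.0% of HOXD13 peaks were shared. In the highest decile the shares were 99.9% for HOXA13 and 99.8% for HOXD13. All of the top 100 HOXA13 peaks overlapped some HOXD13 peak, and all of the top 100 HOXD13 peaks some HOXA13 peak. Of those, 67 of each list overlapped a peak in the top 100 of the other. Among the top 1000 of each list, 1 HOXA13 peak and 1 HOXD13 peak were alone. Among the top 10000, 315 HOXA13 peaks and 147 HOXD13 peaks were alone.

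**Figure D1:**
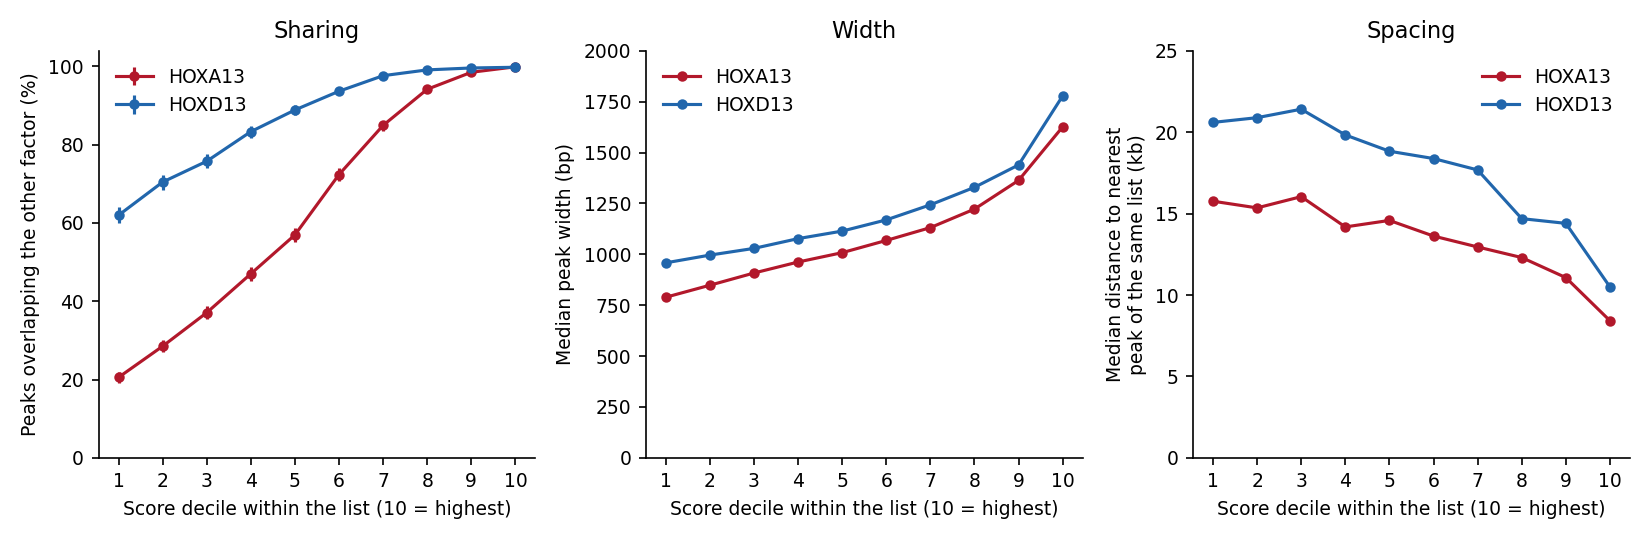
Each panel gives 1 measure per score decile within a list, from the weakest (1) to the strongest (10), for HOXA13 (red) and HOXD13 (blue). Left, percent of peaks overlapping the other factor, with 95% Wilson intervals. Middle, median peak width in bp. Right, median edge-to-edge distance in kb to the nearest peak of the same list. Sharing starts at 20.5% for HOXA13 and 62.0% for HOXD13 and reaches 99.9% and 99.8%; strong peaks of both factors are wider and have a nearer neighbour of any score in their list.

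The 5 shared sites with the best worse-of-both rank are the strongest sites the lists have in common. The first was at chr10:29444036-29447335 (mm9, as all coordinates here), rank 2 for HOXA13, with the HOXD13 peak at chr10:29444069-29447493 at rank 6. The site at chr1:38698511-38700557 ranked 6 for HOXA13 and 7 for HOXD13. The sites at chr12:9756741-9759663, chr1:140301914-140303643 and chr3:80849376-80852534 were all tied at rank 11 for HOXA13 and ranked 2, 4 and 5 for HOXD13. All 5 overlapped wild-type H3K27ac, as did 62.0% of the top score decile for HOXA13 and 65.5% for HOXD13. In the double mutant 4 of the 5 sites still did, and the site on chromosome 1 at 140301914 did not. The chromosome 12 site was the only one of the 5 under wild-type H3K27me3, and it had none in the double mutant. In the top score decile, wild-type H3K27me3 overlapped 18.9% of HOXA13 and 19.9% of HOXD13 peaks, near that count of 1 in 5.

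The order of sites within the lists was similar without being the same. Over 19021 pairs in which 1 HOXA13 peak and 1 HOXD13 peak overlapped each other and nothing else, the ranks had a Spearman correlation of 0.768, and the widths one of 0.705. These are descriptions over sites of a single library per factor, and both caller values depend on depth. A rank can be written as a percentile, the share of the list's peaks below it. The paired peaks had a median percentile of 67.1 in the HOXA13 list and 55.5 in the HOXD13 list. The 2 percentiles of a pair differed by 11.7 points at the median, and 45.1% of pairs lay within 10 points.

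Large disagreements were few. The percentiles lay more than 50 points apart in 719 pairs (3.78%), of which 639 ranked higher for HOXA13 and 80 for HOXD13. That split moved with list length, since the added weak peaks of the longer list lift its paired percentiles. With lists of equal length, 252 pairs ranked more than 50 points higher for HOXA13 and 200 for HOXD13, out of 16938 pairs. The pairs named next are from the full lists. The pair with the largest lead for HOXA13 was at chr8:83327026-83328657, at percentile 87.5 for HOXA13 and 1.56 for HOXD13. The next were chr9:35119621-35120807 (86.2 for HOXA13 and 1.41 for HOXD13) and chr16:38025828-38026966 (87.5 for HOXA13 and 4.69 for HOXD13). For HOXD13 the largest leads were at chr17:48102786-48103591 (percentile 5.67 for HOXA13 and 82.9 for HOXD13), chr13:23837247-23838131 (13.2 for HOXA13 and 89.7 for HOXD13) and chr12:81213795-81214779 (8.58 for HOXA13 and 82.9 for HOXD13). All 3 of these HOXD13-led sites overlapped H3K27ac in the double mutant and in wild type. Of the 3 HOXA13-led sites only the chromosome 8 site overlapped it in both. Over all peaks, the wild-type H3K27ac shares were 37.3% for HOXA13 and 43.5% for HOXD13, and the double-mutant shares 33.9% and 38.2% in that order. With 3 sites on each side, no difference between the factors can be read from these counts.

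Where the factors shared a site, their peaks were centred on almost the same position. The lists give no summits, so the midpoint of each peak stands in for its centre. Of 19733 overlapping pairs, 19021 (96.4%) were one-to-one. Over these, the midpoints lay 55 bp apart at the median, with the middle 50% of pairs between 25 and 106 bp and 95% of pairs within 283 bp. Midpoints were within 50 bp of each other in 46.4% of pairs, within 100 bp in 73.2% and within 500 bp in 99.0%. Sonicated fragments were longer than the median offset, per the labels' protocols.

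Neither direction along the chromosome was favoured. Sites were not oriented by motif, strand or gene, so a displacement tied to such an orientation would cancel out here. The signed offset, HOXA13 midpoint minus HOXD13 midpoint along the chromosome, had a median of 0 bp, with 5% of pairs below -190 bp and 5% above 196 bp. The HOXA13 midpoint had the higher coordinate in 49.8% of pairs and the lower in 49.9%. Peaks were staggered in 8848 pairs (46.5%), the HOXA13 peak lay inside the HOXD13 peak in 6179 (32.5%), and the HOXD13 peak lay inside the HOXA13 peak in 3994 (21.0%). In pairs the median widths were 1157 bp for HOXA13 and 1182 bp for HOXD13. The HOXA13 peak was the wider one in 11.4% of pairs in the lowest of 5 equal bins of HOXA13 score (quintiles) and in 52.5% of pairs in the highest. Binning by HOXA13 score also sorts HOXA13 peaks by width, so this rise is partly built in. By quintile of HOXD13 score the share was 49.1, 41.6, 39.3, 38.4 and 42.2% from weak to strong. That binning sorts HOXD13 peaks by width in turn, so it is no neutral contrast.

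The offset followed width more than rank. By quintile of the wider peak of a pair, its median was 45, 43.5, 48.5, 67.5 and 99.5 bp from narrow to wide. The midpoints of overlapping peaks can lie further apart when the peaks are wider, so part of this rise is built into the measure. By quintile of HOXA13 score the median offset was 61.5, 56.5, 53, 53 and 56 bp from weak to strong. The 1835 pairs in the top decile of both lists had a median of 60 bp. By chromosome the median ran between 50 bp on chromosome 9 and 61.5 bp on chromosome 19.

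**Figure D2:**
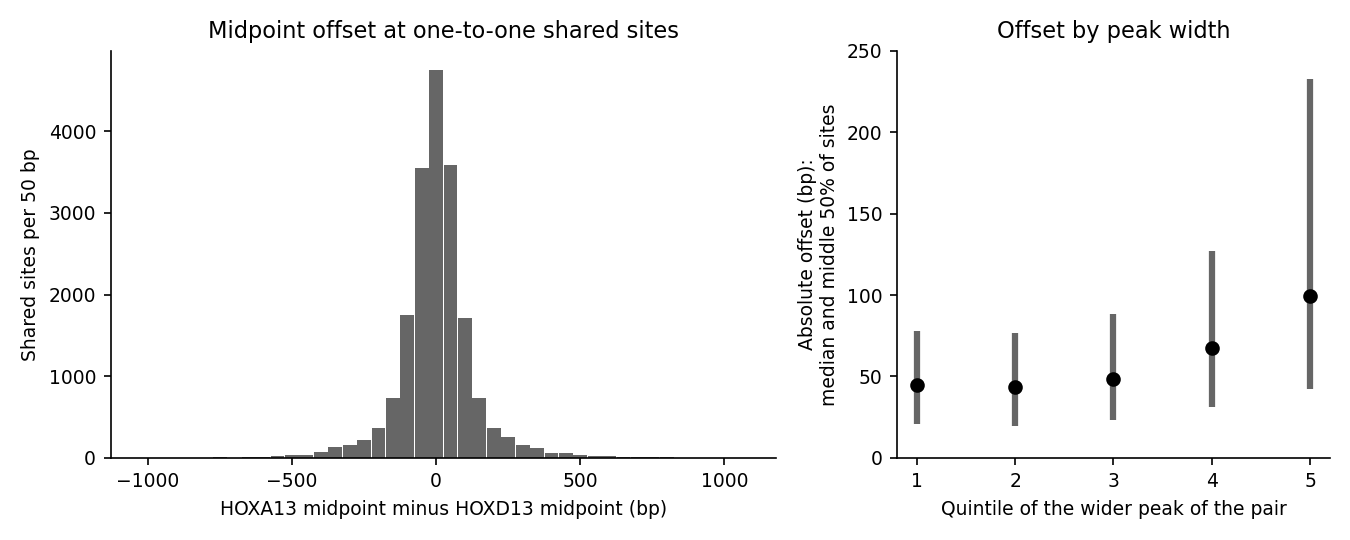
Left, number of one-to-one shared sites per 50 bp of signed midpoint offset (HOXA13 minus HOXD13, bp), over 19021 sites; the bars centre on 0 and fall off evenly on both sides. Right, absolute offset in bp by quintile of the wider peak of the pair (1 = narrowest), with the median as a point and the middle 50% of sites as a bar; the median goes from 45 bp in the narrowest to 99.5 bp in the widest quintile.

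The largest offsets came from peaks of unequal width or from bare contact. The HOXA13 peak at chr12:8641733-8642674, 942 bp wide, lay at one end inside a HOXD13 peak of 4800 bp at chr12:8638073-8642872, with midpoints 1731 bp apart. The HOXA13 peak at chr13:99272073-99273329 touched the HOXD13 peak at chr13:99273235-99275461 over 95 bp, with an offset of -1647 bp. The HOXA13 peak at chr1:14493908-14494457 touched the HOXD13 peak at chr1:14494398-14497121 over 60 bp, with an offset of -1577 bp. By the 1 bp rule such pairs are shared sites, although the peak centres are over 1.5 kb apart.

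Some wide peaks of 1 factor spanned several peaks of the other, more often on the HOXD13 side. There were 114 HOXA13 peaks that overlapped at least 2 HOXD13 peaks, with a median width of 2264 bp. There were 257 HOXD13 peaks that overlapped at least 2 HOXA13 peaks, with a median width of 2261 bp, and 8 of these overlapped at least 3. The widest HOXA13 peaks were chr6:51126532-51134038 (7507 bp, over 2 HOXD13 peaks), chr8:59183824-59190013 (6190 bp, over 1) and chr6:52912935-52918651 (5717 bp, over 2). The widest HOXD13 peaks were chr1:164146574-164157584 (11011 bp, over 3 HOXA13 peaks), chr3:86342309-86350681 (8373 bp, over 4) and chr7:77489932-77498016 (8085 bp, over 3). Of these 6, the chromosome 1 peak had the lowest standing in its list, at a score of 453 and rank 3422, against ranks from 84 to 604 for the other 5. All 6 overlapped H3K27ac in the double mutant and in wild type. Wide peaks meet the 1 bp rule more readily. In the widest decile of each list, wild-type H3K27ac overlapped 69.3% of HOXA13 peaks and 70.2% of HOXD13 peaks.

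Sites with 1 factor alone were mostly weak, and few had a peak of the other factor within 1 kb. The median score was 75.3 for alone and 201 for shared HOXA13 peaks, and 69.7 for alone and 156 for shared HOXD13 peaks. An alone HOXA13 peak lay 24.6 kb from the nearest HOXD13 peak at the median, and an alone HOXD13 peak lay 16.0 kb from the nearest HOXA13 peak. Only 595 alone HOXA13 peaks (5.39%) and 219 alone HOXD13 peaks (7.54%) had the other factor within 1 kb. Within 10 kb the shares were 29.75% for HOXA13 and 39.4% for HOXD13, and within 100 kb they were 85.9% for HOXA13 and 90.5% for HOXD13. The highest quintile of scores held 49 alone HOXA13 peaks and 14 alone HOXD13 peaks.

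The strongest alone peaks differed in width between the factors. The 49 HOXA13 peaks had a median width of 1170 bp and none was wider than 3 kb, whereas the 14 HOXD13 peaks had a median width of 2856 bp and 7 were wider than 3 kb. Neither H3K27ac nor H3K27me3 of wild type was found at 32 of the 49 HOXA13 peaks (65.3%, 51.3 to 77.1) and at 6 of the 14 HOXD13 peaks (42.9%, 21.4 to 67.4). Shared peaks of the same quintile had neither mark in 35.8% of cases for HOXA13 and 31.5% for HOXD13, and all peaks in 56.1% for HOXA13 and 49.9% for HOXD13. The first alone HOXA13 peak, at chr7:149765768-149768463, stood at rank 371 with a score of 1922. It was 2696 bp wide and lay 7.66 kb from a HOXD13 peak, with H3K27ac in the double mutant and in wild type. The next HOXA13 peak, at chr13:3494345-3495413, ranked only 2929 and had neither mark. The peaks at chr8:27674528-27675593 and chr4:77212185-77213300 had neither mark, and the one at chr17:73261020-73261895 overlapped H3K27ac in wild type and not in the double mutant.

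Among HOXD13 peaks alone, the first was at chr11:115879318-115884483, at rank 479 and 5166 bp wide. The nearest HOXA13 peak was 63.6 kb away, and it overlapped H3K27ac in wild type and not in the double mutant. The peak at chr6:51406435-51412651 was 6217 bp wide and the one at chr1:7380018-7384686 was 4669 bp wide, and both had neither mark. The narrower peaks at chr2:72313480-72314702 and chr5:138628000-138629188 overlapped H3K27ac in both genotypes. Over all widths above 5 kb, 0 of 6 HOXA13 peaks were alone (95% interval up to 39.0%) and 4 of 22 HOXD13 peaks (18.2%, 7.31 to 38.5). With so few peaks these intervals overlap.

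Along the chromosomes, HOXA13 peaks lay closer together in the full lists and not in lists of equal length. The nearest peak of the same list was 13.2 kb away at the median for HOXA13 and 17.5 kb for HOXD13, edge to edge. The middle 50% ran between 3.91 and 37.1 kb for HOXA13 and between 5.01 and 49.1 kb for HOXD13. A neighbour within 1 kb was found for 9.66% of HOXA13 peaks and 7.97% of HOXD13 peaks. Peaks with no neighbour of their list within 50 kb, called isolated, numbered 5600 for HOXA13 (18.3%) and 5516 for HOXD13 (24.7%). With lists of equal length the median distances were 17.8 kb for HOXA13 and 17.5 kb for HOXD13, and 24.7% of the peaks of each factor were isolated.

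Strong peaks stood closer to other peaks than weak ones did. From the lowest to the highest score decile, the median distance changed in HOXA13 from 15760 to 8423 bp and in HOXD13 from 20604 to 10500 bp. Among the top 1000 peaks of each list alone, the order of the factors was the other way, with a median distance to the next such peak of 345.0 kb for HOXA13 and 282.8 kb for HOXD13. Among the top 5000 it was 75.1 kb for HOXA13 and 66.6 kb for HOXD13.

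The distances were uneven on a large scale. The step between consecutive peaks averaged 77.1 kb for HOXA13 and 105.8 kb for HOXD13, with medians of 31.2 kb and 41.9 kb in that order. The longest run without a peak was on chromosome 7 for both, chr7:38986818-46998007 (8.01 Mb) for HOXA13 and chr7:38986797-47078919 (8.09 Mb) for HOXD13. These runs held 6 wild-type H3K27ac peaks. Whether reads map uniquely there was not analysed here.

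In windows of 1 Mb both factors were dense and sparse in the same places. Over 2423 autosomal windows the mean was 12.7 HOXA13 peaks and 9.23 HOXD13 peaks, and the variance was 7.41 times the mean for HOXA13 and 6.12 times for HOXD13. The window counts had a Spearman correlation of 0.950 between the factors and a Pearson correlation of 0.954, as descriptions over windows that share their base composition and mappability. Of the 242 windows with the most peaks, 194 were in common (80.2% of either set). No peak was called in 133 windows for HOXA13 and in 172 for HOXD13, 118 of them the same. The ratio of HOXA13 to HOXD13 peaks had a median of 1.36 over 1181 windows with at least 20 peaks of both factors together, with a range of 0.769 to 3.40, and 37 of these windows held more HOXD13 than HOXA13 peaks.

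The fullest window was chromosome 6 from 52 to 53 Mb, with 90 HOXA13 peaks and 77 HOXD13 peaks. It was followed for both factors by chromosome 2 from 74 to 75 Mb, with 73 HOXA13 peaks and 64 HOXD13 peaks. The next HOXA13 window was chromosome 2 from 75 to 76 Mb, with 69 HOXA13 peaks and 47 HOXD13 peaks, and the next HOXD13 window was chromosome 18 from 55 to 56 Mb, with 62 HOXA13 peaks and 52 HOXD13 peaks. Hoxa13 lies on chromosome 6 and Hoxd13 on chromosome 2, and no gene could be assigned to a peak on the genome build at hand.

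**Figure D3:**
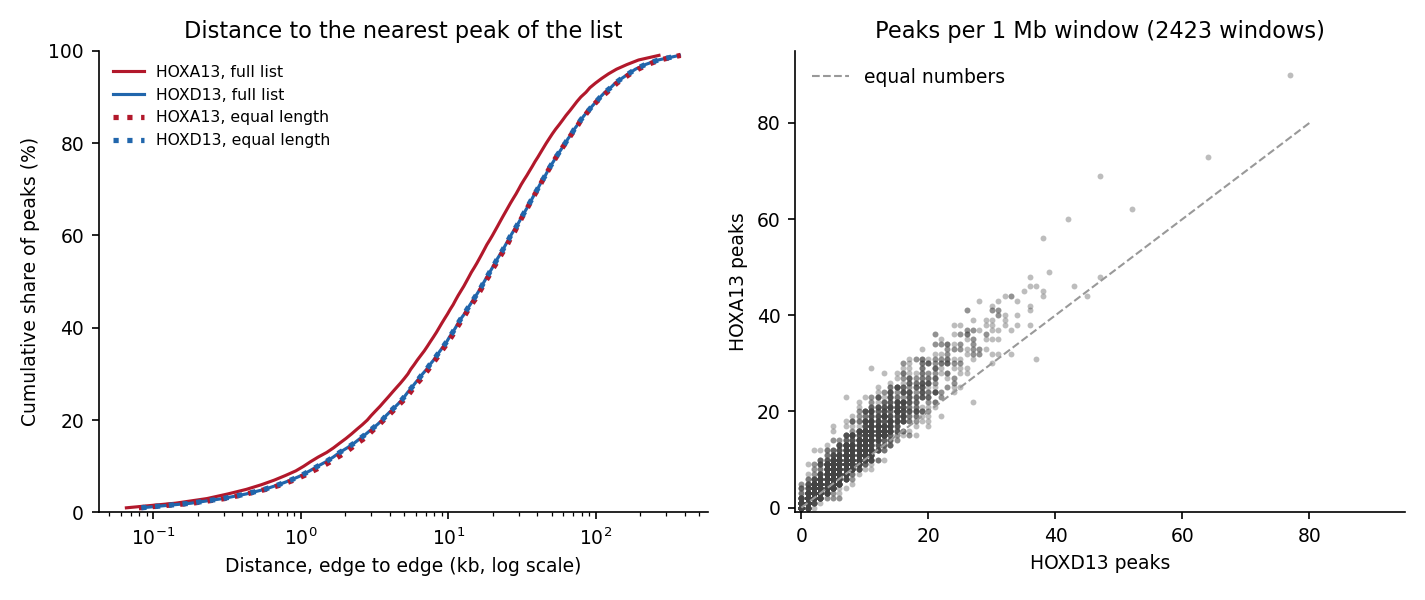
Left, cumulative percent of peaks by edge-to-edge distance in kb (log scale) to the nearest peak of the same list, for HOXA13 (red) and HOXD13 (blue), with full lists as solid lines and lists of equal length as dotted lines; the full HOXA13 curve lies to the left (median 13.2 kb, against 17.5 kb for HOXD13), and the dotted curves lie on each other. Right, HOXA13 peaks against HOXD13 peaks in 2423 windows of 1 Mb, with a dashed line of equal numbers; 37 of the 1181 windows with at least 20 peaks of both factors together lie below that line.

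Whole chromosomes differed less than windows. HOXA13 peaks per Mb ran between 9.44 on chromosome 7 and 14.5 on chromosome 13, and HOXD13 peaks per Mb between 6.87 on chromosome 7 and 11.1 on chromosome 18. The ratio of HOXA13 to HOXD13 peaks stayed between 1.29 on chromosome 18 and 1.42 on chromosome 19. The share of HOXA13 peaks shared with HOXD13 ran between 59.9% on chromosome 19 and 69.3% on chromosome 18 (66.7 to 71.8), with the second highest at 65.5% on chromosome 13. The share of HOXD13 peaks shared with HOXA13 ran between 83.7% on chromosome 11 and 89.8% on chromosome 15.

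Dense stretches of peaks were defined as chains of at least 5 peaks of a factor in which no gap exceeds 10 kb. HOXA13 had 220 such stretches with 1342 peaks (4.38% of its list) and a median length of 25.4 kb. HOXD13 had 105 with 659 peaks (2.95% of its list) and a median length of 27.2 kb. With lists of equal length HOXA13 had 99 stretches with 2.75% of its peaks, and HOXD13 had 105 with 2.95%. Stretches of the full lists met in 78 cases of each factor, which is 35.5% of the HOXA13 and 74.3% of the HOXD13 stretches. Every peak was shared in 40 of 220 HOXA13 stretches and in 56 of 105 HOXD13 stretches, while 2 HOXA13 stretches and 0 HOXD13 stretches had no shared peak. Over the full lists 64.0% of HOXA13 and 87.0% of HOXD13 peaks were shared, which alone makes an all-shared stretch more likely for HOXD13. Most peaks stood in no chain at all, 56.7% of HOXA13 peaks and 62.4% of HOXD13 peaks.

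The 2 stretches with the most peaks of each factor lay on chromosomes 6 and 2. On chromosome 6 the HOXA13 stretch at chr6:52110571-52227344 held 29 peaks over 116.8 kb, 27 of them shared, and peaks covered 44.9% of its length. The HOXD13 stretch there, chr6:52122381-52208061, held 22 peaks over 85.7 kb, all shared, and peaks covered 55.1% of it. Inner gaps had a median of 1.43 kb for HOXA13 and 1.25 kb for HOXD13. At the tied score of 3100 stood 3 HOXA13 peaks, chr6:52169882-52174348, chr6:52175635-52178615 and chr6:52193131-52195968 (rank 11), and 2 HOXD13 peaks, chr6:52175578-52178728 and chr6:52193340-52196332 (rank 12). Each of these HOXD13 peaks overlapped a HOXA13 peak of that score.

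On chromosome 2 the HOXA13 stretch at chr2:74486603-74588214 held 24 peaks over 101.6 kb, 20 of them shared. The HOXD13 stretch at chr2:74486687-74573165 held 20 peaks over 86.5 kb, 17 of them shared. Ranks were lower here, with the best HOXA13 peak at 577 and the best HOXD13 peak at 365, at nearly the same place (chr2:74536289-74537764 for HOXA13 and chr2:74534768-74537797 for HOXD13). Median scores in the stretch stood at 205 for HOXA13 and 276 for HOXD13, each against its own list's median of 126 and 134 in that order.

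In the double mutant H3K27me3 was called over fewer of these peaks than in wild type on chromosome 6, and over as many on chromosome 2. On chromosome 6, 12 of the 29 HOXA13 peaks overlapped H3K27me3 in the double mutant, against 29 of 29 in wild type, and for HOXD13 peaks the counts were 6 of 22 in the double mutant and 22 of 22 in wild type. H3K27ac overlapped 23 of these 29 HOXA13 peaks in the double mutant and 28 in wild type. On chromosome 2, H3K27me3 overlapped 24 of 24 HOXA13 peaks and 20 of 20 HOXD13 peaks in both genotypes. H3K27ac overlapped 17 of the 24 HOXA13 peaks in the double mutant and 18 in wild type. Wild-type H3K27me3 spanned the whole chromosome 2 stretch as 1 peak. On chromosome 6 each of its long peaks spanned several peaks of a factor. The wild-type H3K27me3 counts are therefore not separate observations of the mark. Wild-type H3K27ac had long peaks too, 1 from 54.6 to 109.0 kb of the chromosome 6 stretch. Another covered the first 52.95 kb of the chromosome 2 stretch. The wild-type H3K27ac counts are likewise not all separate observations. Among all HOXA13 peaks, 10.47% overlapped the wild-type H3K27me3 list and 8.38% the double-mutant one. For all HOXD13 peaks these shares were 11.2% and 8.90% in that order. The double-mutant H3K27me3 list was shorter, with 19358 peaks against 28875 for wild type. H3K27me3 calls were thus fewer list-wide, and the part of list length in the chromosome 6 counts was not tested. Each genotype has 1 library per mark, and the lists of the genotypes may differ in depth. The targeted genes lie on chromosomes 6 and 2, and an effect of the inserted cassettes was not tested.

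**Figure D4:**
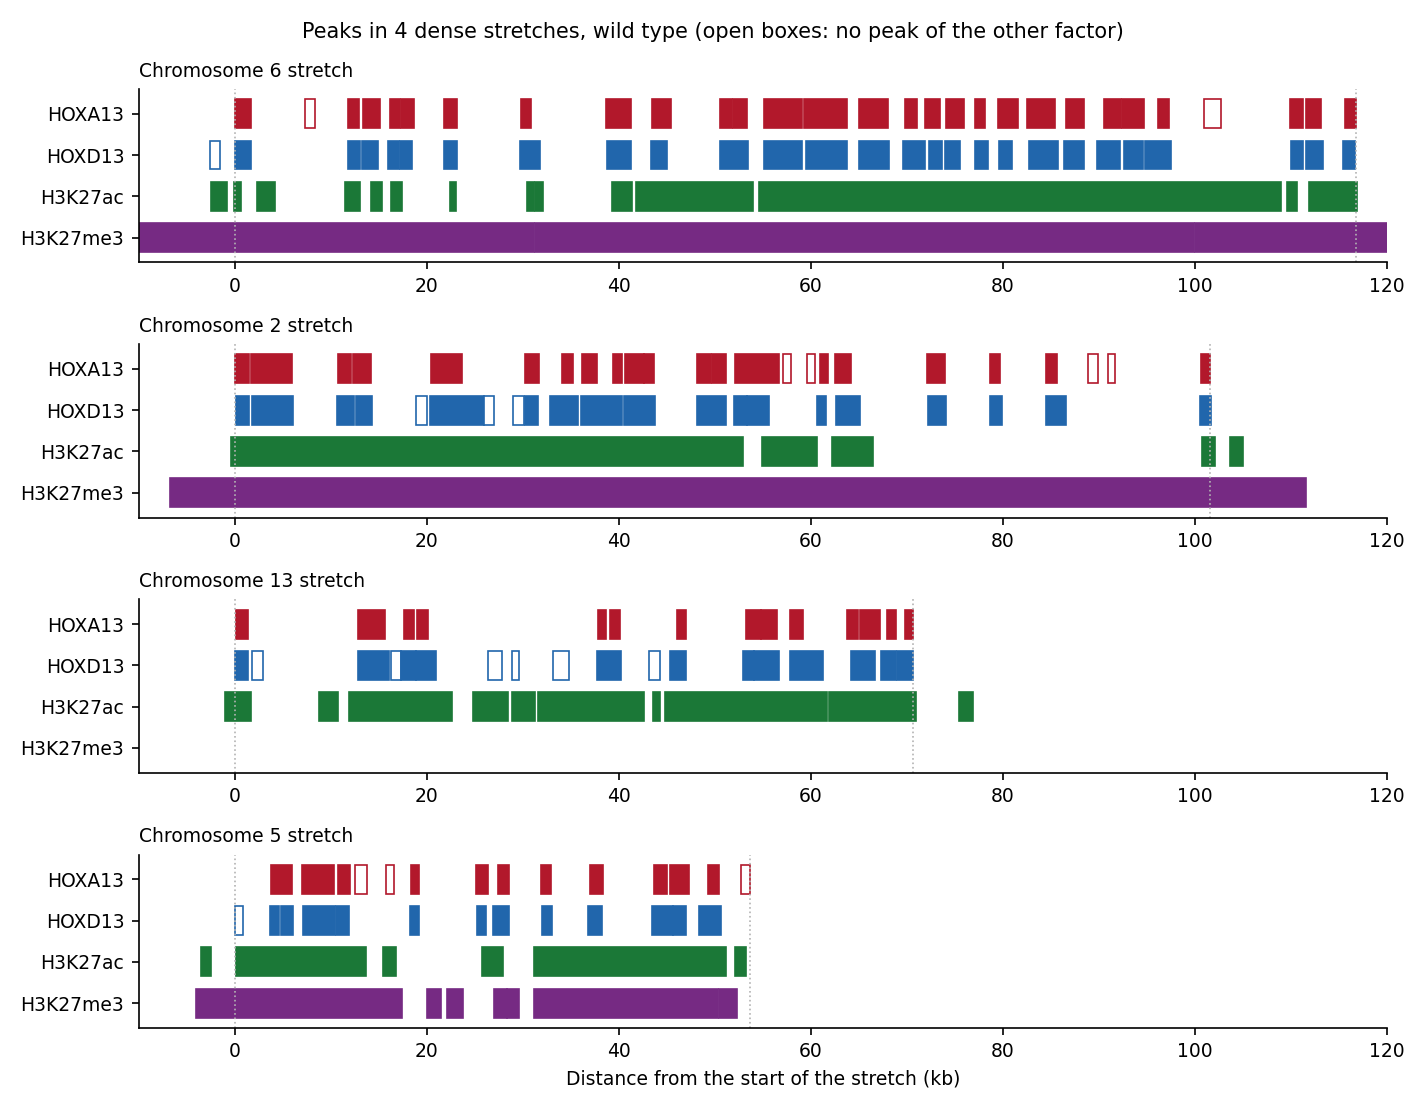
Maps of 4 dense stretches, to scale, with distance in kb from the stretch's start and rows for HOXA13, HOXD13 and wild-type H3K27ac and H3K27me3 peaks; open boxes are peaks with no peak of the other factor, and dotted lines mark the ends of the stretch. On chromosomes 6 and 2 H3K27me3 runs under the whole stretch, while the chromosome 13 stretch has no H3K27me3 peak and holds 6 open HOXD13 boxes of 18.

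The next stretches were shared to different degrees. On chromosome 5 the HOXA13 stretch at chr5:120248869-120298756 held 14 peaks with 11 shared, and the HOXD13 stretch at chr5:120245094-120295709 held 13 with 12 shared. H3K27me3 of wild type overlapped 11 of the peaks of each factor there, and its longer peaks each spanned several of them. The HOXA13 stretch at chr18:55102928-55157763 held 14 peaks, of which 10 were shared and 0 overlapped H3K27me3, and it was met by 8 HOXD13 peaks. Its strongest peak ranked 107 with a score of 2848, while the stretch's median score was 133. At chr11:23949066-23998700, 8 of 12 HOXA13 peaks were shared. At chr14:122842240-122891423, all 11 HOXD13 peaks were shared, and 10 HOXA13 peaks lay in it.

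Of the 5 HOXD13 stretches with the most peaks, the one on chromosome 13 held the most alone peaks. At chr13:23608692-23679382 it held 18 HOXD13 peaks over 70.7 kb, of which 12 were shared and 6 alone. H3K27ac overlapped 17 of the 18 peaks in the double mutant and in wild type, and H3K27me3 overlapped 0 in either. Some wild-type H3K27ac peaks there spanned several HOXD13 peaks, so that count is not all separate observations. Over the surrounding 23.5 to 24 Mb, an interval chosen after its values were seen, there were 30 HOXA13 peaks, 4 of them alone, and 36 HOXD13 peaks, 13 of them alone. The median rank percentile of these peaks was 36.4 in the HOXA13 list and 71.2 in the HOXD13 list. One of the 3 pairs with the largest lead for HOXD13, at chr13:23837247-23838131, also lies in this interval.

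Dense HOXA13 peaks were shared more often than isolated ones, and for HOXD13 the difference depended on the setting. Of dense HOXA13 peaks 73.3% were shared (70.9 to 75.6), and of isolated HOXA13 peaks 58.2% (56.9 to 59.5), a difference of 15.2 points (12.4 to 17.8). It was 9.26 points when the overlap had to be 50% of both peaks, and 25.2 points when a stretch needed at least 10 peaks. Of dense HOXD13 peaks 88.0% were shared (85.3 to 90.3), and of isolated HOXD13 peaks 84.8% (83.8 to 85.7), a difference of 3.20 points (0.348 to 5.67). The HOXD13 difference became -2.16 points (-7.15 to 1.90) with only scores of at least 100, and -2.75 points (-6.07 to 0.243) when the overlap had to be at least 50% of both peaks. It was larger with lists of equal length, at 7.29 points (3.94 to 10.3), and with peaks closer than 1000 bp joined, at 6.64 points (3.50 to 9.08).

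Rank moved with density, so the shares were set within score quintiles. Dense peaks had a median score of 155 and isolated peaks 110 for HOXA13, and for HOXD13 dense peaks had 199 and isolated peaks 117. From the lowest to the highest quintile, the difference of dense minus isolated HOXA13 peaks was 6.89, 15.4, 7.32, 2.34 and -0.016 points. For HOXD13 it was -1.46, -3.17, -2.52, -6.67 and 0.637 points. The interval took in 0 in the fourth (-2.35 to 6.14) and the highest (-1.38 to 0.837) HOXA13 quintile. In that highest quintile 99.5% of dense and 99.5% of isolated HOXA13 peaks were shared. For HOXD13 the interval took in 0 in every quintile but the fourth. The fourth HOXD13 value had an interval of -12.3 to -3.18. It became -3.38 (-8.39 to -0.813) without chromosome 13 from 23.5 to 24 Mb, a region chosen after its values were seen.

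Dense stretches carried both histone marks more often than isolated sites, also within score quintiles. Wild-type H3K27ac overlapped 37.3% of all HOXA13 peaks and 43.5% of all HOXD13 peaks. For HOXA13 the share was 58.2% in dense stretches and 28.6% at isolated peaks, a difference of 29.6 points (26.7 to 32.5). For HOXD13 it was 67.7% in dense stretches and 35.9% at isolated peaks, a difference of 31.7 points (27.9 to 35.4). The difference was positive in each score quintile of both lists, between 15.0 and 37.8 points for HOXA13 and between 18.6 and 40.1 points for HOXD13. Quintiles do not make ranks equal. In the highest, dense and isolated peaks had median scores of 657.5 and 540.4 for HOXA13, and 770.4 and 571.5 for HOXD13. Dense peaks were also wider, with a median of 1133 bp against 987 bp at isolated HOXA13 peaks, and 1361 bp against 1109 bp at isolated HOXD13 peaks. The part of width in the overlap was not tested here.

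H3K27me3 of wild type overlapped 10.47% of all HOXA13 peaks and 11.2% of all HOXD13 peaks. For HOXA13 the share was 23.8% in dense stretches and 7.86% at isolated peaks, and for HOXD13 it was 31.3% in dense stretches and 7.80% at isolated peaks. The difference was positive in each score quintile, between 10.9 and 17.1 points for HOXA13 and between 16.3 and 27.02 points for HOXD13. Without the 2 longest stretches, on chromosomes 6 and 2, the dense share was 20.7% for HOXA13 and 26.6% for HOXD13. The corresponding H3K27ac shares were 57.0% for HOXA13 and 66.0% for HOXD13. In the double mutant, where H3K27ac overlapped 33.9% of HOXA13 and 38.2% of HOXD13 wild-type peak positions, it overlapped 59.3% of dense and 25.2% of isolated HOXA13 positions. At HOXD13 positions it overlapped 66.6% of dense and 31.2% of isolated ones. Double-mutant H3K27me3 overlapped 8.38% of all HOXA13 and 8.90% of all HOXD13 positions, with 18.9% of the dense HOXA13 and 24.7% of the dense HOXD13 ones.

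Sites with 1 factor alone differed between the factors in H3K27ac. Alone HOXA13 peaks overlapped wild-type H3K27ac in 25.9% of cases and shared HOXA13 peaks in 43.8%. Alone HOXD13 peaks overlapped it in 42.0% of cases and shared HOXD13 peaks in 43.8%. Within score quintiles, from low to high, the difference of alone minus shared HOXA13 peaks was -10.9, -10.2, -7.84, -7.14 and -23.1 points. For HOXD13 it was 6.87, 7.58, 8.86, 22.4 and -9.98 points. The last HOXA13 value rests on 49 alone peaks. The last HOXD13 values rest on 73 and 14 alone peaks, with intervals of 10.96 to 32.0 and -33.2 to 13.3.

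Averaged over score quintiles by the number of alone peaks, the difference was -9.88 points (-11.3 to -8.43) for HOXA13 and 7.67 points (5.62 to 9.73) for HOXD13. The HOXD13 value was 3.36 points (1.60 to 5.12) with lists of equal length and 3.29 points (0.622 to 5.97) with scores of at least 100, and the HOXA13 value was -6.32 points when shared peaks had to overlap by 50% of both. Peak width moves with both score and overlap. Within width quintiles, from narrow to wide, the HOXA13 difference was -9.60, -6.46, -1.49, -0.763 and -8.56 points and the HOXD13 difference 6.02, 10.9, 7.13, 10.48 and -5.89 points. The interval took in 0 in the third (-3.98 to 1.05) and the fourth (-4.36 to 2.90) HOXA13 quintile and in the widest HOXD13 quintile (-13.2 to 1.07). In the double mutant, 26.9% of alone and 37.8% of shared HOXA13 positions overlapped H3K27ac, and 41.4% of alone and 37.7% of shared HOXD13 positions. H3K27me3 of wild type overlapped 9.11% of alone and 11.2% of shared HOXA13 peaks, and 10.6% of alone and 11.3% of shared HOXD13 peaks. As the lists come from 1 library each, whether a second library of the same factor would give the same alone peaks was not tested.

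**Figure D5:**
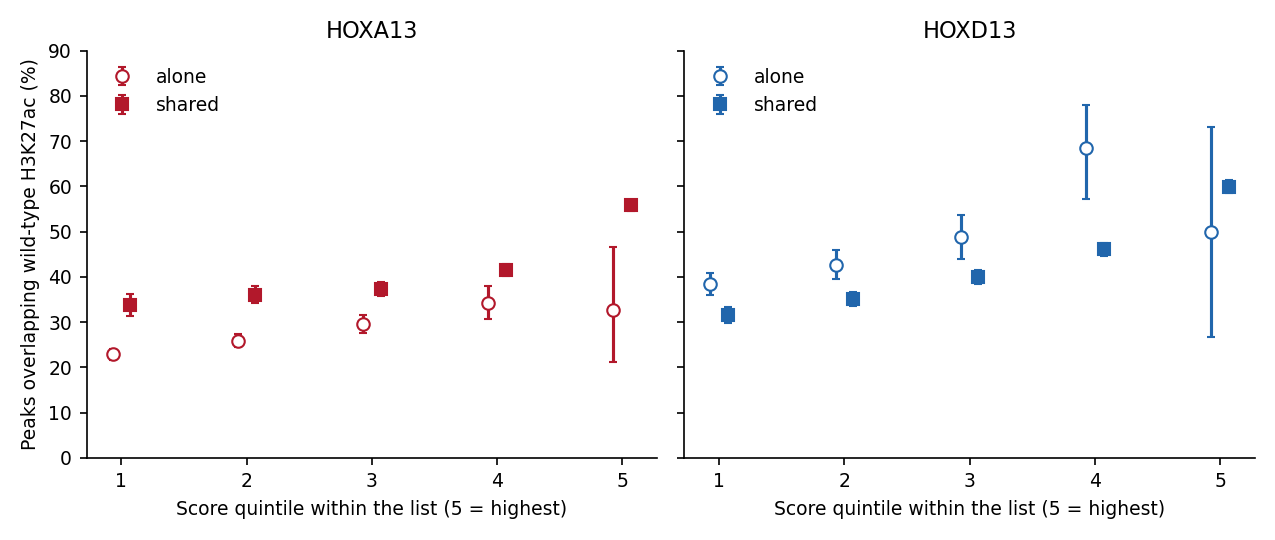
Percent of peaks overlapping wild-type H3K27ac by score quintile within the list (1 = weakest), for peaks alone (open circles) and shared (filled squares), HOXA13 left and HOXD13 right, with 95% Wilson intervals. Alone HOXA13 peaks lie below shared ones in all 5 quintiles; alone HOXD13 peaks lie above shared ones in quintiles 1 to 4 and, with 14 peaks, below them in quintile 5.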

How the data were processed

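The samples were grouped by their titles, with 1 library per factor and mark. The submitters' processing notes name Bowtie 0.12.7, MACS 1.4 and the mm9 build. The deposited lists give each peak's position, name and score. The deposited score is read as -10 times log10 of a p-value, which no header states; its lowest value, 50, would then be 1e-05. Every list held chromosome 1 peaks past 195471971 bp, the end of that chromosome in GRCm38, so positions were kept as mm9 and counted from 1. The reference at hand is GRCm38, so no gene or sequence was assigned to a peak; the RefSeq table gave only the chromosomes of Hoxa13 and Hoxd13.

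Overlap meant at least 1 bp. Stretches, gaps, windows and pairs were computed with Python 3.11.15, numpy 2.4.6, pandas 2.3.3 and scipy 1.17.1, and figures drawn with matplotlib 3.10.9; the code was checked on simulated data. Regions named are, per factor where it applies, the 5 best shared sites, the 5 best alone peaks, the 5 dense stretches with the most peaks, the 3 largest offsets, the 3 largest rank differences in each direction, the 3 fullest windows and the 3 widest peaks. Members, lists and rules were chosen with earlier results of these data known. Alternatives changed the score threshold, list length, joining of peaks, chromosomes, overlap and stretch definition. Input signal was not analysed here, and depth is unknown.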

Additional observations from a re-analysis of the deposited data

How the results depend on the processing

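Leaving out a replicate was not possible with 1 library per factor. No paired analysis was possible because each factor has 1 library and the labels give no replicate numbers. The values below are, in this order, shares of peaks in percent, distances in bp and differences in percentage points. Of 89 alternative values, 46 stayed within the 95% counting interval of the reported value, 41 left it or moved a count by over 1.5 times, and 2 changed sign. The alternatives for H3K27ac at alone and shared peaks and for rank percentiles were chosen after seeing the data.

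With scores of at least 100, 66.2% of HOXA13 peaks were shared, the width ratio was 0.915, the median distance to the nearest peak was 21177 bp for HOXA13 and 27344 bp for HOXD13, and 2.12% of HOXA13 and 1.90% of HOXD13 peaks were dense. Dense minus isolated sharing was then 17.98 for HOXA13 and -2.16 for HOXD13, and alone minus shared H3K27ac 3.29 for HOXD13. At equal length, 77.5% of HOXA13 and 77.3% of HOXD13 peaks were shared, the width ratio was 0.980, the HOXA13 distance 17813 bp and the dense HOXA13 share 2.75%; dense minus isolated sharing was 11.9 for HOXA13 and 7.29 for HOXD13, and alone minus shared H3K27ac 3.36 for HOXD13. Pairs over 50 percentile points apart then numbered 252 with HOXA13 higher and 200 with HOXD13 higher. With peaks closer than 1000 bp joined, the offset was 57.5 bp, the distances 15828 bp for HOXA13 and 20350 bp for HOXD13, the dense shares 2.62% for HOXA13 and 1.98% for HOXD13, and dense minus isolated sharing 6.64 for HOXD13. Over all overlapping pairs the offset was also 57.5 bp.

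With overlap of at least 50% of both peaks, 62.0% of HOXA13 and 85.0% of HOXD13 peaks were shared. Dense minus isolated sharing was 9.26 for HOXA13 and -2.75 for HOXD13, and alone minus shared H3K27ac -6.32 for HOXA13 and 10.2 for HOXD13. The dense shares were 1.15% for HOXA13 and 1.03% for HOXD13 with gaps of up to 5 kb, 14.6% and 9.90% in that order with 20 kb, 18.9% and 14.1% with at least 3 peaks, and 0.509% and 0.420% with at least 10. HOXA13 dense minus isolated sharing was 21.6 with 5 kb, 12.03 with at least 3 peaks and 25.2 with at least 10. Values with the X chromosome included, without scores of 3000 or more, or with overlap of 50% of either peak stayed within the interval of the reported value. The interval of the HOXD13 dense minus isolated difference nevertheless took in 0 with 50% of either peak (2.86), without scores of 3000 or more (1.89), with gaps of up to 5 kb (0.844) and with at least 10 peaks (2.43).

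Read depth is unknown, so differences in list length, and every share that depends on it, cannot be told apart from depth.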
